A study of Mus musculus with 8 samples.

Results

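Genes of DNA replication and mitosis were followed in RNA that came down with GFP-tagged ribosomes from mouse skin. The 42 genes were taken by symbol from a list of S phase and mitosis genes, and all 42 were found among the 53700 gene identifiers of the count table. They were divided by role into 17 replication genes (entry into S phase, origin licensing, the replicative helicase and nucleotide supply) and 25 mitotic genes (the G2 and mitotic kinases, the spindle, the centromere and chromosome structure).

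Libraries came from uninjured skin (n = 3), skin 3 days after wounding (n = 2) and skin 7 days after wounding (n = 3), with the time read from the abbreviation in the sample titles. All mice, uninjured ones included, were AdipoqCreER;R26-NuTRAP and received tamoxifen. The adiponectin promoter drives the Cre, tamoxifen activates it, and recombined cells then make a GFP-tagged ribosomal protein by which their polysomes can be pulled down. The mice were 7 to 9 weeks old, and wounded mice had 4 full-thickness wounds made with a 5 mm punch. The labels do not say whether libraries of a group came from separate or pooled mice, so p-values measure the spread between these libraries, which may be technical. Column names of the table start with a number that is shared within a group and differs between groups. What it marks is not stated, and it cannot be told apart from the group. Libraries held 5308959 to 17751689 counts.

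The labelled cell type was checked against 10 adipocyte markers, none of which was at 0 in any library. Their summed level was 36224 to 49299 CPM (counts scaled to a common library size, with TMM factors) in uninjured, 37854 and 49595 CPM in day 3 and 29308 to 50726 CPM in day 7 libraries. The median difference of the 10 from their uninjured mean in log2 CPM was -0.32 and -0.36 in day 3 replicates 1 and 2. It was -1.11, -0.82 and -0.15 in day 7 replicates 1, 2 and 3. The pull-down also held RNA of other cell types, with 9 keratinocyte and hair follicle markers at 1571 to 2363 CPM and 9 skeletal muscle markers at 4416 to 9777 CPM in uninjured libraries. In such bulk RNA, fewer cycling cells and less RNA per cycling cell cannot be told apart.

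As background, cells enter S phase when G1 cyclins, cyclin E among them, relieve with their kinase partners the Rb block on E2F factors. These factors then drive genes for licensing, the helicase and nucleotide synthesis. Genes of G2 and mitosis are held down by the DREAM complex in resting cells and are driven later by B-MYB with MuvB and by FOXM1, largely through promoter elements called CHR together with CCAAT boxes. Mature adipocytes are regarded as mostly non-dividing, whereas several cell types of a healing wound divide.

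At day 7 against uninjured skin, 9 of the 42 genes rose and 0 fell (edgeR's quasi-likelihood test, Benjamini-Hochberg adjusted p under 0.05). This is 21.4% called higher, against 5.9% of the 18656 genes tested (1.77% were called lower, and 7.67% either way). They were 3 of 17 replication genes (17.6%), namely Rrm2, Tk1 and Mcm6, and 6 of 25 mitotic genes (24%), namely Birc5, Cdk1, Cenpa, Cenpe, Cenpf and Aurka. DESeq2 called 21 members higher, beside 8.6% of all genes in its fit. These were the same 9 with E2f1 of the replication genes and Ccna2, Ccnb1, Plk1, Aurkb, Cdc20, Ube2c, Kif23, Prc1, Tpx2, Top2a and Mki67 of the mitotic genes. Below, a gene passed, rose or fell only by the edgeR test unless DESeq2 is named. The fitted fold change was above 1 for all 42, whereas it was so for 9715 of all genes tested. The median log2 fold change was 2.37 over the mitotic genes (range 0.39 to 3.23), 0.92 over the replication genes (range 0.15 to 2.73) and 0.04 over all genes tested. In 18 of the 42 genes every day 7 library lay above every uninjured library, which was the case for 16.7% of all genes tested. All 42 had passed the filter on low counts, and no p was computed over the group as a whole.

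The calls depended on single libraries. Without day 7 replicate 3, 28 members were called (22 mitotic and 6 replication), beside a background of 14.2% called higher. With uninjured replicate 2 left out, Rrm2, Birc5, Cenpe and Ube2c were called, beside a background of 3.28%, so 3 of the 9 remained. Birc5 alone passed when uninjured replicate 1, uninjured replicate 3, day 7 replicate 1 or day 7 replicate 2 was left out, beside backgrounds of 1.28% to 1.75%. Birc5 passed in each of the 15 alternatives run.

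**Figure D1:**
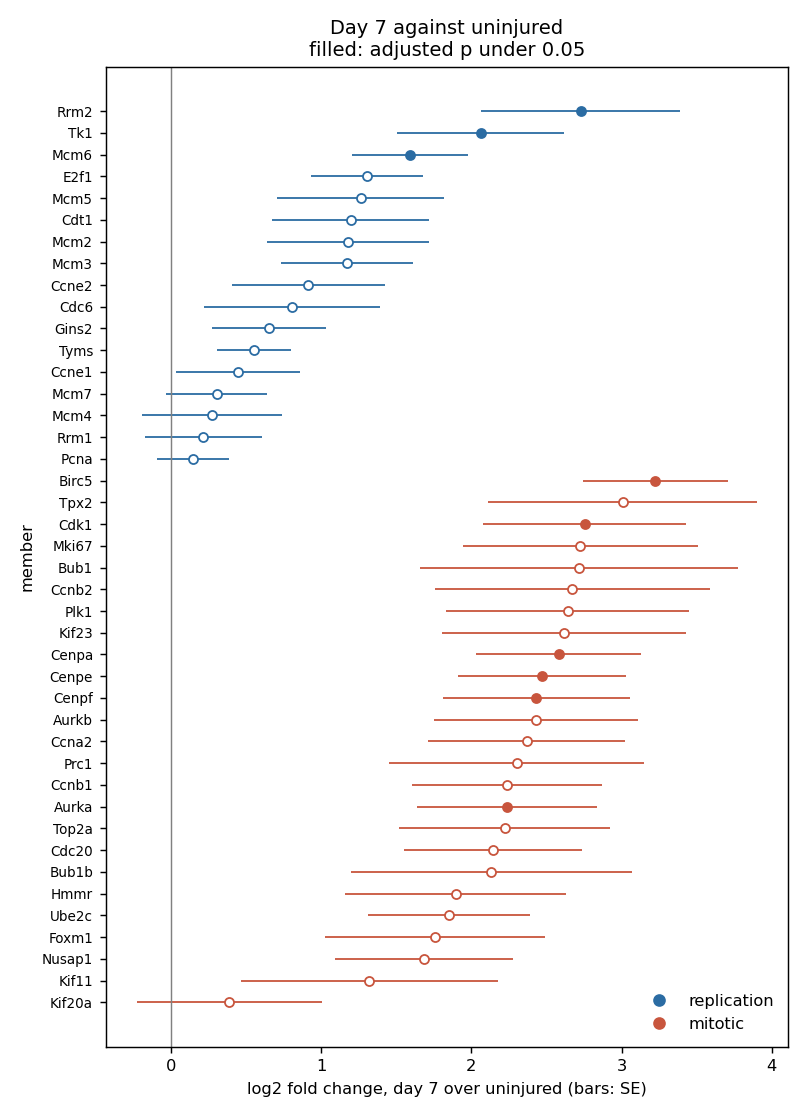
Log2 fold change of each member at day 7 over uninjured skin (x axis) with its standard error as a bar, replication genes in blue above and mitotic genes in red below. Filled points passed the test. Mitotic genes centre on 2.37 and replication genes on 0.92, and 9 points are filled.

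Promoters of some called members are printed to show matches of the motifs named below. That of Tk1, also called, holds no match and was left out. That of Birc5, which holds none either, is printed because Birc5 had the smallest adjusted p. RefSeq promoter windows (build GRCm38.p6) reach from 250 bases before to 50 bases after the annotated start and were found for 34 of the 42 members, without Foxm1, Gins2, Tpx2, Aurkb, Kif20a, Ccna2, Mcm4 and Ccne2. Searched on both strands were an E2F-like motif (the word TTCCCGC, the word TTCGCGC, the word TTGCCGC and the word TTGGCGC), a CHR-like motif (the word TTTGAA and the word TTCGAA) and the CCAAT box (CCAAT). Overlapping matches were counted separately, and E2F-like words of opposite strands overlap in Mcm3, Mcm5, Mcm6 and Mcm7, CCAAT boxes overlap in Ube2c, and a word of this motif overlaps a CCAAT box in Mcm7 and in Ccnb1. Matches are in capitals below. The windows lie at chr12:24708004-24708303, plus strand (Rrm2), chr1:128359656-128359955, minus strand (Mcm6), chr11:117848987-117849286, plus strand (Birc5), chr5:30666636-30666935, plus strand (Cenpa), chr3:135212313-135212612, plus strand (Cenpe) and chr10:69352863-69353162, minus strand (Cdk1), and each is written 5′ to 3′ on the gene's strand.
Rrm2: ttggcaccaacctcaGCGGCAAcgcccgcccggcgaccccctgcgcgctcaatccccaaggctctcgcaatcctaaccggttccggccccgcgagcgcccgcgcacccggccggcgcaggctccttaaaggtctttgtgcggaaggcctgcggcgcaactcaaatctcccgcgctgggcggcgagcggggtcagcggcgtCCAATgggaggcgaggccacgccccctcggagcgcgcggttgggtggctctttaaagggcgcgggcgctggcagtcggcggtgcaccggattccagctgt
Mcm6: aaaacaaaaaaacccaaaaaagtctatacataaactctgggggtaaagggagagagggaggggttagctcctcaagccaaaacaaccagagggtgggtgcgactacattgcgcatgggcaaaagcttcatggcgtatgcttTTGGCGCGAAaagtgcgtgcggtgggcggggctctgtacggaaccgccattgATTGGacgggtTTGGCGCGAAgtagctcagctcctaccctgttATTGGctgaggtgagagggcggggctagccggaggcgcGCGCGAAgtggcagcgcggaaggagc
Birc5: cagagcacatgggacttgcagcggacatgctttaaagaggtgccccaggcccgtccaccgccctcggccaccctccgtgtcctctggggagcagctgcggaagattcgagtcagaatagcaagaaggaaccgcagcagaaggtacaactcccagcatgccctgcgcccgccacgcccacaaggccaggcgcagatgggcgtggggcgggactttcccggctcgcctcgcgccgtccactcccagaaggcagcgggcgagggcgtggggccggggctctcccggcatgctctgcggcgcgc
Cenpa: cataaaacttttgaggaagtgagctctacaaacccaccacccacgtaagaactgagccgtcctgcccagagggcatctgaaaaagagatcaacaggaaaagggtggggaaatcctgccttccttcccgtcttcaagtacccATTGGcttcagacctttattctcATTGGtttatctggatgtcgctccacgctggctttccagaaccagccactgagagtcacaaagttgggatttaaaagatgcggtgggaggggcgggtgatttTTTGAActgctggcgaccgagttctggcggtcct
Cenpe: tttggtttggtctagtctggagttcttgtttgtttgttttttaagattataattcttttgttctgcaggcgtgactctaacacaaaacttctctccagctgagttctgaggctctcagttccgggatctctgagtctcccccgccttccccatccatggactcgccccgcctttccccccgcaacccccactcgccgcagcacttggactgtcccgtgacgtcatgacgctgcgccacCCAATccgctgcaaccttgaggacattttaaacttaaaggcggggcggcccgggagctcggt
Cdk1: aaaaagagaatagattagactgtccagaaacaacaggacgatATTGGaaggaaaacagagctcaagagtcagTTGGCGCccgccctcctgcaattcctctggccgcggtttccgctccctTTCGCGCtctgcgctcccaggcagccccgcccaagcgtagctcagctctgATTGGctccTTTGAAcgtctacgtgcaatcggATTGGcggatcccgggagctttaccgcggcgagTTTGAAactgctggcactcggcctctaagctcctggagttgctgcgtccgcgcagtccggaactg

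A CHR-like match stood in 16 of 20 mitotic promoters (80%) and in 2 of 14 replication promoters (14.3%), against 14.2% of 11752 promoters of genes tested here and 19.4% of 27025 promoters in the table. All 16 of these mitotic promoters also held a CCAAT box, a combination found in 5.94% of promoters of genes tested. CCAAT boxes stood in 18 of 20 mitotic (90%) and 8 of 14 replication promoters (57.1%), against 38.3% of promoters of genes tested. The E2F-like motif had the opposite split, with matches in 4 of 20 mitotic promoters (20%) and 8 of 14 replication promoters (57.1%), against 15.9% of promoters of genes tested. Median GC content was 58.3% in mitotic and 57.5% in replication promoters and 60.3% in promoters of genes tested. These are matches of letters in 1 window per gene and were not tested. Cdk1 held 2 E2F-like, 2 CHR-like and 3 CCAAT matches, Mcm6 5 E2F-like and 2 CCAAT matches, and Top2a 4 CHR-like and 6 CCAAT matches. The windows of Birc5, Tk1, E2f1, Ccne1, Tyms and Nusap1 held none of these words.

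**Figure D2:**
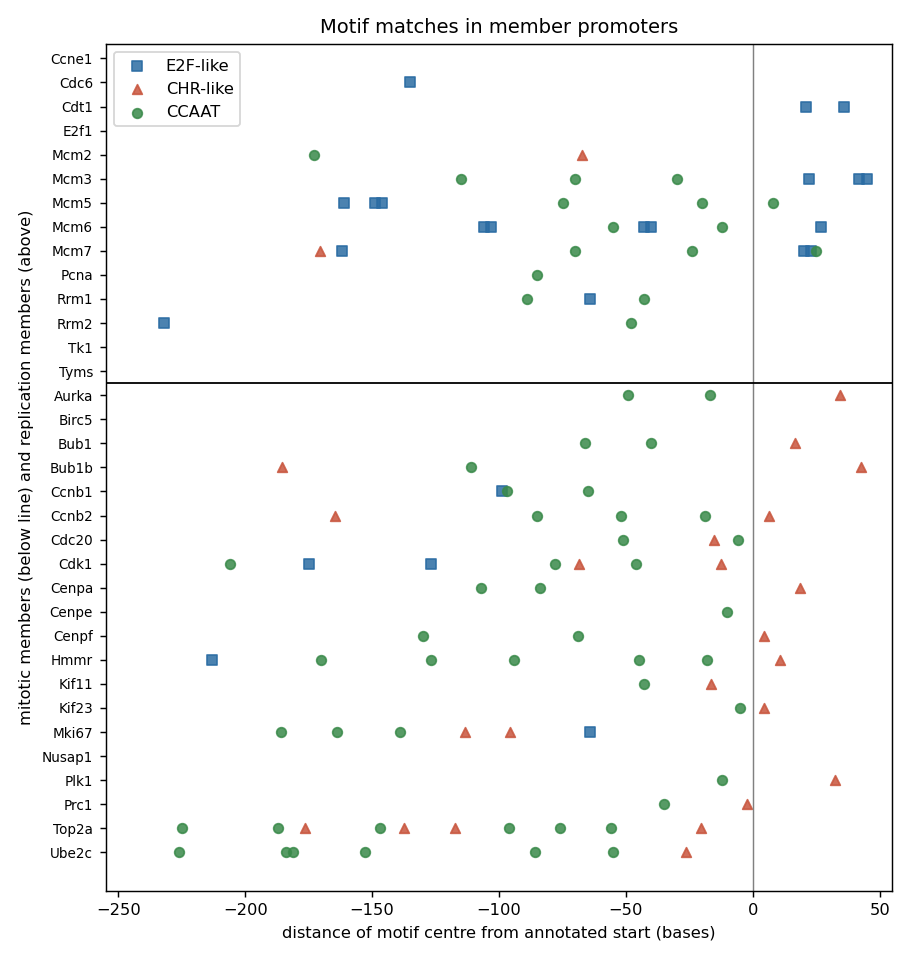
Centres of motif matches in 34 member promoters (one row each, replication genes above the line and mitotic genes below) by distance in bases from the annotated start (x axis, negative is upstream). Triangles (CHR-like) lie mostly in mitotic rows, in 16 of 20, squares (E2F-like) in 8 of 14 replication rows, and circles mark CCAAT boxes.

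Among genes that open S phase, 0 passed in edgeR at day 7, and DESeq2 called E2f1 (adjusted p = 0.0201). E2f1, a transcription factor that drives S phase genes, was at 5.61, 8.21 and 4.62 CPM in uninjured, 8.23 and 8.02 CPM in day 3 and 22.4, 14.0 and 9.70 CPM in day 7 libraries. All day 7 libraries lay above all uninjured ones, with a log2 fold change of 1.31 ± 0.37 (SE) and an edgeR adjusted p of 0.0566. The cyclins that start S phase, Ccne1 and Ccne2, averaged 8.04 ± 2.62 and 4.5 ± 0.96 CPM in day 7 libraries and 5.86 ± 1.71 and 2.41 ± 0.79 CPM in uninjured libraries (SD, n = 3 each). Their edgeR adjusted p were 0.505 and 0.267. Cdc6 and Cdt1, which load the helicase at origins, had log2 fold changes of 0.81 and 1.20, and Gins2, a subunit of the active helicase, of 0.65, and none passed.

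The 6 subunits of the MCM2-7 helicase ring had unequal values. Mcm6 was at 5.00, 6.12 and 6.07 CPM in uninjured, 8.23 and 7.70 CPM in day 3 and 24.7, 18.9 and 8.38 CPM in day 7 libraries, so every wounded library lay above every uninjured one. It rose 3.01-fold at day 7 (log2 1.59 ± 0.39, edgeR adjusted p = 0.0339). Mcm7 was at 13.1, 18.8 and 17.04 CPM in uninjured, 14.8 and 16.5 CPM in day 3 and 29.2, 20.1 and 11.1 CPM in day 7 libraries. These groups overlapped, with a log2 fold change of 0.30 ± 0.34 (edgeR adjusted p = 0.582). Mcm2, Mcm3 and Mcm5 had log2 fold changes of 1.18, 1.17 and 1.26 and Mcm4 of 0.27, and none of these 4 passed. Mcm7 shares exon sequence with Cops6 and Ap4m1 on the opposite strand, and the strand setting of the counting is not given in the sources used here. Differences between subunits were not tested.

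Pcna, the sliding clamp of the replicative polymerases, had the highest level per length of all members. It reached 8.18 RPKM (here CPM per kilobase of exon) in uninjured and 9.06 RPKM in day 7 libraries, while the median replication gene was at 1.06 and 1.895 RPKM. Its values were 21.0, 19.2 and 18.8 CPM in uninjured, 13.2 and 20.9 CPM in day 3 and 22.0, 21.6 and 21.7 CPM in day 7 libraries. The day 7 values stood just above the uninjured ones (log2 0.15 ± 0.24, edgeR adjusted p = 0.719).

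Of the genes for nucleotide supply, Rrm2 and Tk1 rose. Ribonucleotide reductase, which makes deoxynucleotides, is built from a large subunit, Rrm1, and a small subunit, Rrm2. Rrm2 was at 0.98, 3.98 and 1.16 CPM in uninjured, 4.32 and 4.49 CPM in day 3 and 26.8, 10.6 and 5.39 CPM in day 7 libraries, rising 6.62-fold at day 7 (log2 2.73 ± 0.66, edgeR adjusted p = 0.0339). All 5 wounded libraries lay above the uninjured ones. Rrm1 averaged 13.6 ± 7.58 CPM in day 7 and 11.7 ± 2.68 CPM in uninjured libraries (SD, n = 3 each), with a log2 fold change of 0.21 ± 0.39 that did not pass (edgeR adjusted p = 0.751). Thymidine kinase, Tk1, was at 2.07, 2.33 and 1.01 CPM in uninjured, 4.52 and 4.28 CPM in day 3 and 13.1, 6.91 and 3.11 CPM in day 7 libraries, rising 4.17-fold (edgeR adjusted p = 0.0476). Part of a Tk1 exon lies opposite Afmid. That gene was at 1.95, 2.02 and 1.16 CPM in uninjured and 3.85, 2.80 and 0.96 CPM in day 7 libraries. Thymidylate synthase, Tyms, had a log2 fold change of 0.55 ± 0.25 from a mean of 14.3 CPM in uninjured libraries and did not pass (edgeR adjusted p = 0.178).

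Among the mitotic genes, Birc5 had the smallest adjusted p. It encodes survivin, which guides the chromosomal passenger complex with the kinase Aurkb. Birc5 was at 2.56, 2.27 and 1.30 CPM in uninjured, 4.73 and 4.70 CPM in day 3 and 29.3, 20.6 and 8.38 CPM in day 7 libraries, and the 3 groups did not overlap. It rose 9.35-fold at day 7 (log2 3.23 ± 0.48, edgeR adjusted p = 0.006). Aurkb averaged 6.38 ± 5.68 CPM in day 7 and 1.12 ± 0.68 CPM in uninjured libraries (SD, n = 3 each) and did not pass (edgeR adjusted p = 0.0526).

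Cdk1, the kinase that drives entry into mitosis, was at 1.59, 2.57 and 0.72 CPM in uninjured, 4.11 and 4.92 CPM in day 3 and 19.2, 12.6 and 2.64 CPM in day 7 libraries. It rose 6.75-fold at day 7 (edgeR adjusted p = 0.0341), although day 7 replicate 3 lay only just above the highest uninjured library. Its cyclin partners Ccna2, Ccnb1 and Ccnb2 had log2 fold changes of 2.37, 2.24 and 2.67 and did not pass (edgeR adjusted p = 0.0514, 0.0546 and 0.0953). Ccnb2 was at 1.71, 2.69 and 0 CPM in uninjured, 1.85 and 3.74 CPM in day 3 and 19.6, 7.93 and 2.52 CPM in day 7 libraries. Its day 7 and uninjured libraries overlapped. Foxm1, the factor that drives many of these genes, averaged 3.87 ± 2.25 CPM in day 7 and 1.14 ± 0.39 CPM in uninjured libraries (SD, n = 3 each, edgeR adjusted p = 0.154). Plk1, a kinase of mitotic entry and exit, was at 11.2, 6.35 and 0.72 CPM in day 7 and 1.46, 0.86 and 0.58 CPM in uninjured libraries, so replicate 3 lay within the uninjured range.

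All 3 centromere genes rose. Cenpa, the histone H3 variant that marks centromeres, was at 4.88, 4.72 and 2.31 CPM in uninjured, 4.11 and 14.8 CPM in day 3 and 34.2, 27.5 and 10.5 CPM in day 7 libraries. It rose 5.98-fold at day 7 (log2 2.58 ± 0.55, edgeR adjusted p = 0.021), with every day 7 library above every uninjured one. Cenpe, a kinetochore motor, was at 1.95, 2.82 and 1.16 CPM in uninjured, 3.29 and 2.14 CPM in day 3 and 20.0, 8.68 and 5.15 CPM in day 7 libraries. It rose 5.54-fold (edgeR adjusted p = 0.0258). Cenpf, a kinetochore protein, was at 2.68, 2.02 and 1.30 CPM in uninjured, 4.32 and 3.10 CPM in day 3 and 16.9, 13.3 and 2.52 CPM in day 7 libraries. It rose 5.40-fold (edgeR adjusted p = 0.0402), and day 7 replicate 3 lay within the uninjured range.

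Of the spindle genes, Aurka rose. This spindle pole kinase was at 1.83, 3.00 and 1.01 CPM in uninjured, 3.50 and 5.35 CPM in day 3 and 13.5, 12.0 and 2.99 CPM in day 7 libraries, rising 4.71-fold (edgeR adjusted p = 0.0454). Day 7 replicate 3 lay just below the highest uninjured library. Its activator Tpx2 had a log2 fold change of 3.01 ± 0.90 and did not pass (edgeR adjusted p = 0.0639). Motors and midzone proteins varied. Kif23, of the central spindle, had a log2 fold change of 2.62, Kif11, which separates the poles, of 1.32 and Kif20a, of the late spindle, of 0.39, and none of the 3 passed in edgeR, while DESeq2 called Kif23 (adjusted p = 0.00664). Kif11 was at 13.0, 3.83 and 0.48 CPM in day 7 and 2.44, 3.18 and 1.16 CPM in uninjured libraries. Day 7 replicate 1 was far above the rest and replicate 3 below every uninjured library. The spindle proteins Nusap1 and Hmmr had log2 fold changes of 1.68 and 1.896 and did not pass.

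Genes of the spindle checkpoint and of anaphase had 0 calls in edgeR, while DESeq2 called Cdc20 (adjusted p = 0.00497) and Ube2c (adjusted p = 0.00635). Cdc20, which activates the anaphase-promoting complex, was at 2.81, 2.02 and 3.32 CPM in uninjured, 1.65 and 4.70 CPM in day 3 and 21.4, 9.89 and 4.43 CPM in day 7 libraries. No day 7 library overlapped an uninjured one (log2 2.15 ± 0.59, edgeR adjusted p = 0.0505). Ube2c, the ubiquitin-conjugating enzyme of that complex, was at 3.90, 9.43 and 1.44 CPM in uninjured, 9.66 and 9.41 CPM in day 3 and 25.7, 17.3 and 12.2 CPM in day 7 libraries (edgeR adjusted p = 0.0598). It had the highest level per length of the mitotic genes, at 7.07 RPKM in day 7 and 1.89 RPKM in uninjured libraries. Part of a Ube2c exon lies opposite the muscle gene Tnnc2, which was at 15.2 to 21.9 CPM in day 7 and 60.7 to 153.8 CPM in uninjured libraries and so ran the other way. The checkpoint kinases Bub1 and Bub1b had log2 fold changes of 2.72 and 2.13 from means below 1 CPM in uninjured libraries and did not pass.

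The common proliferation markers Mki67 and Top2a did not pass in edgeR but were called by DESeq2 (adjusted p = 0.0015 and 0.00668). Mki67, which coats mitotic chromosomes, was at 1.95, 4.78 and 1.88 CPM in uninjured, 3.08 and 7.16 CPM in day 3 and 33.7, 23.0 and 2.28 CPM in day 7 libraries. Replicates 1 and 2 of day 7 were far above the rest and replicate 3 lay among the uninjured libraries (log2 2.72 ± 0.78, edgeR adjusted p = 0.0566). Top2a, the topoisomerase that untangles chromosomes, averaged 21.2 ± 20.1 CPM in day 7 and 4.40 ± 2.75 CPM in uninjured libraries (SD, n = 3 each, edgeR adjusted p = 0.0775).

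**Figure D3:**
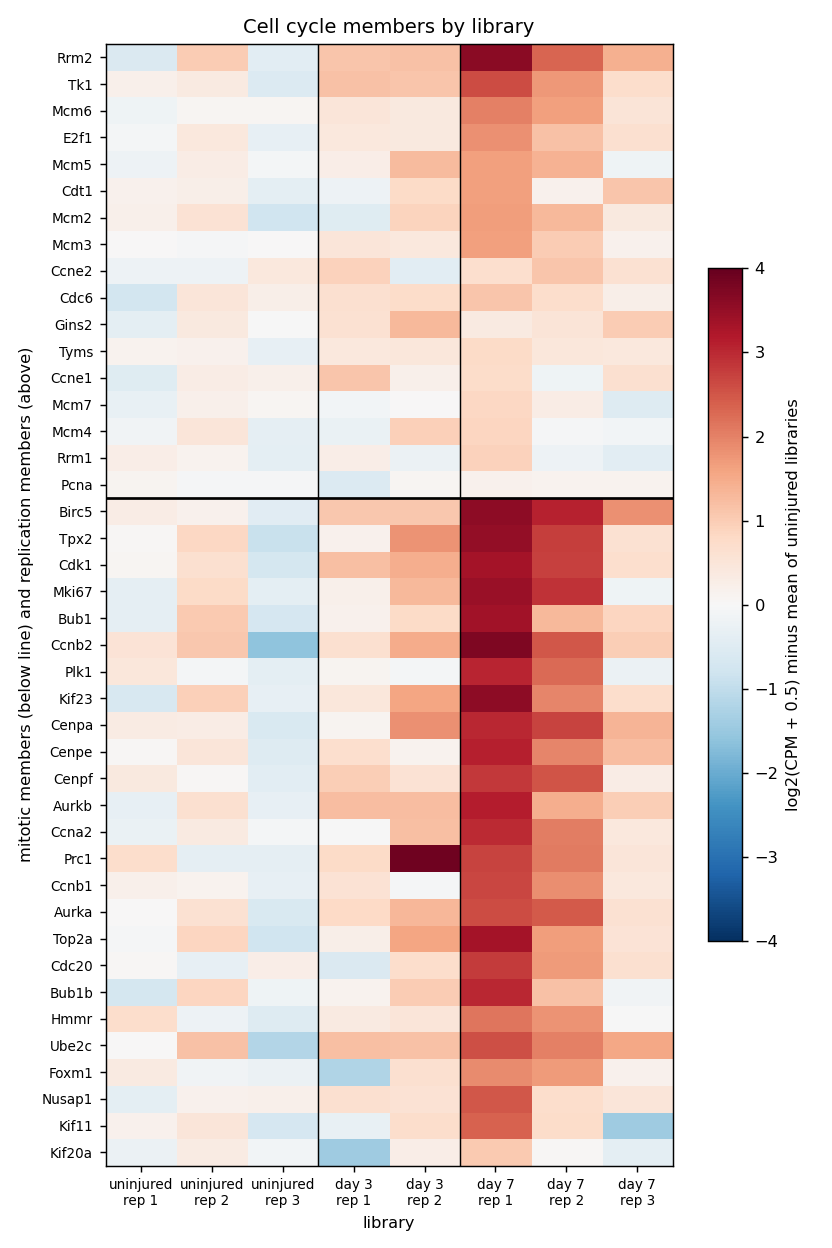
Level of each member in each library as log2(CPM + 0.5) minus the mean of the uninjured libraries (colour, red is higher), with libraries along the x axis and replication genes above the line. Day 7 replicate 1 was the highest library for 37 of 42 members (not counted over all genes), and Prc1 stands out in day 3 replicate 2 at 3.90.

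Libraries of a group differed in the same direction for most members. Day 7 replicate 1 was the highest of all 8 libraries for 24 of 25 mitotic and 13 of 17 replication genes. Day 7 replicate 3 was the lowest of its group for all 25 mitotic and for 13 of 17 replication genes, and it lay above every uninjured library for 10 and 11 of them. The median log2 difference between day 7 replicates 1 and 3 was 2.42 over mitotic and 1.19 over replication genes. At day 3, replicate 2 lay above replicate 1 for 18 of 25 mitotic and 10 of 17 replication genes, with median log2 differences of 0.94 and 0.05. These orders of libraries were not counted over all genes tested, so they may not be particular to the members.

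At day 3 against uninjured skin, 0 of 42 members passed in edgeR, against 0.0107% of all genes called higher. Of the members, 3 had an unadjusted p under 0.05 and lay higher, against 7.57% of all genes, and DESeq2 called 1, beside 1.9% of all genes called higher in its fit. The fitted change was positive for 38 of 42, with median log2 fold changes of 0.84 over mitotic genes, 0.47 over replication genes and 0.02 over all genes tested. In 14 of 42 members both day 3 libraries lay above every uninjured library, against 16.9% of all genes. They included Birc5, Cdk1, Rrm2, Tk1 and Mcm6, whose values are given above. Prc1, which bundles microtubules of the central spindle, was the member that DESeq2 called (adjusted p = 0.00602). It was at 2.32, 0.86 and 0.87 CPM in uninjured, 2.47 and 25.3 CPM in day 3 and 10.9, 6.91 and 1.92 CPM in day 7 libraries. Its high day 3 value is thus that of replicate 2 alone. Rccd1, whose exons overlap Prc1 on the opposite strand, was at 8.84 and 10.6 CPM in these 2 libraries.

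At day 7 against day 3, 0 of 42 members passed in edgeR, against 0.0643% of all genes called higher and 0.0858% called either way, and DESeq2 called Birc5 (adjusted p = 0.0215), beside 0.813% of all genes called higher in its fit. An unadjusted p under 0.05 with a higher value was found for 9 members, against 6.37% of all genes. Median log2 fold changes were 1.499 over mitotic, 0.36 over replication and 0.08 over all genes tested. Birc5 had a log2 fold change of 2.04 (edgeR adjusted p = 0.275) and Cenpe of 2.08 (edgeR adjusted p = 0.362). This comparison shares its day 7 libraries with the first and its day 3 libraries with the second, so the 3 are not independent.

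Set against replication genes, mitotic genes made up a larger part of the members' RNA in day 7 replicates 1 and 2 than in the other libraries. Their summed level was 48.1, 69.1 and 30.04 CPM in uninjured, 66.6 and 132.5 CPM in day 3 and 434.5, 234.9 and 81.9 CPM in day 7 libraries. The replication genes summed to 104.2, 126.6 and 97.9 CPM in uninjured, 129.96 and 147.4 CPM in day 3 and 259.0, 172.9 and 133.0 CPM in day 7 libraries. The ratio of the mitotic to the replication sum was 0.461, 0.546 and 0.307 in uninjured, 0.513 and 0.898 in day 3 and 1.68, 1.36 and 0.616 in day 7 libraries. It was thus highest in day 7 replicates 1 and 2, while day 7 replicate 3 lay between the day 3 values and just above the uninjured ones. In uninjured libraries Pcna, Mcm7, Tyms and Rrm1 were the largest parts of the replication sum (means of 19.6, 16.3, 14.3 and 11.7 CPM). Their log2 fold changes at day 7 were 0.15, 0.30, 0.55 and 0.21, so the ratio depends in part on these genes. Fitted folds at day 7 against uninjured exceeded 4 for 19 of 25 mitotic and 2 of 17 replication genes. In uninjured libraries the median level per length was 0.33 RPKM over mitotic and 1.06 RPKM over replication genes, and 2 of 25 against 9 of 17 lay above 1 RPKM. At day 7 the medians were 1.68 and 1.895 RPKM. The difference of the medians of log2 fold change, mitotic minus replication, was 1.45 at day 7 against uninjured and 0.37 at day 3 against uninjured. The second turned to -0.16 without day 3 replicate 2. Exon lengths are those of the table, which merge all annotated exons of a gene.

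**Figure D4:**
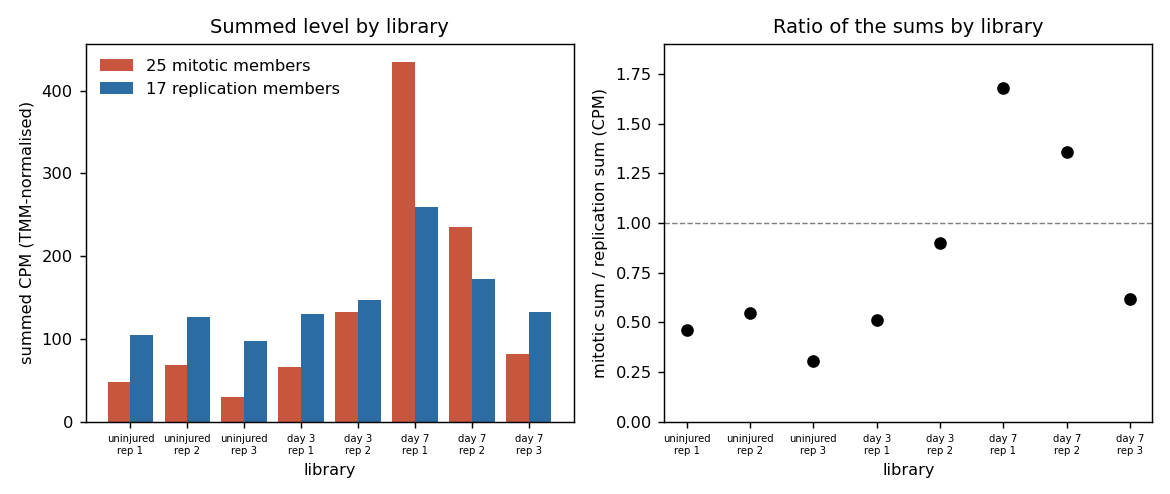
Summed CPM of the 25 mitotic and 17 replication genes in each library (left) and the ratio of both sums (right), with libraries along the x axes. The ratio is above 1 in day 7 replicates 1 and 2 only, at 1.68 and 1.36.

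Other genes of the cell cycle were taken from lists by function, not picked for how single genes moved. The lists were chosen with earlier results of these data known, so they are no independent check. Of 49 tested other replication genes, 5 rose and 0 fell in edgeR at day 7 against uninjured skin, with a median log2 fold change of 0.39. They were the S phase kinase Cdc7 (10.3 ± 5.50 CPM in day 7 and 1.75 ± 0.82 CPM in uninjured libraries, SD, n = 3 each, edgeR adjusted p = 0.0192), the DNA ligase Lig1 (3.45-fold), the maintenance methyltransferase Dnmt1 (3.28-fold), the polymerase subunit Pole (4.28-fold) and the checkpoint mediator Clspn (6.74-fold). Of 50 other mitotic genes, 5 rose and 0 fell in edgeR, with a median of 1.57. They were the kinetochore gene Spc25 (3.47-fold, edgeR adjusted p = 0.0173), the abscission gene Cep55 (8.68-fold), the mitotic kinase Pbk (12.4-fold), the kinesin Kif18b (14.1-fold) and Cdca8 (4.23-fold), which encodes borealin of the passenger complex. These are 10.2% and 10% called higher by edgeR, against 5.9% of all genes. DESeq2 called 9 of the other replication genes higher, and of the other mitotic genes 21 higher and 1 lower (Pttg1, which encodes securin), against 8.6% of all genes higher.

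Upstream of S phase, beside 5.9% of all genes called higher, 1 of 9 G1 cyclins, kinases and related genes rose (11.1%). This was Ccnd1, cyclin D1, at 11.8 ± 6.90 CPM in day 7 and 1.85 ± 0.57 CPM in uninjured libraries (SD, n = 3 each, 6.33-fold, edgeR adjusted p = 0.0151). Among 16 tested E2F, Rb and MuvB genes 0 passed in edgeR, with a median log2 fold change of -0.05 and 3 higher at an unadjusted p under 0.05, against 17.2% of all genes at that threshold. Log2 fold changes were positive for 8 of these 16 genes, up to 2.15, and negative for 8. DESeq2 called 3 of the 16 lower, namely Rb1, E2f4 and E2f6. The share of all genes that DESeq2 called lower was not counted. The Rb gene Rb1 and the repressive E2f4 had log2 fold changes of -0.82 and -0.74 (edgeR adjusted p = 0.0524 and 0.0534). Among 12 tested CDK inhibitors and arrest genes 0 passed in edgeR, with a median of -0.30. At an unadjusted p under 0.05, 2 were higher, against the same 17.2%. DESeq2 called 1, Cdkn1c, higher, beside 8.6% of all genes. Cdkn1a, the inhibitor p21, averaged 119.9 ± 22.1 CPM in day 7 and 164.2 ± 29.1 CPM in uninjured libraries (SD, n = 3 each, edgeR adjusted p = 0.22), and Cdkn1c, p57, had a log2 fold change of 0.85 (edgeR adjusted p = 0.0611).

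Markers of several cell types differed between the same libraries. Summed over 9 markers, keratinocytes and hair follicles stood at 1839, 2363 and 1571 CPM in uninjured, 1109 and 4436 CPM in day 3 and 5317, 1681 and 1527 CPM in day 7 libraries. They were thus high in day 3 replicate 2 and day 7 replicate 1, the higher library of each time for the mitotic sum, and at the uninjured level in day 7 replicate 2. At day 7 against uninjured skin 0 of the 9 passed in edgeR and 0 in DESeq2, with 1 higher at an unadjusted p under 0.05, against 17.2% of all genes. The 9 endothelial markers summed to 76.4, 162.9 and 78.0 CPM in uninjured, 232.6 and 247.5 CPM in day 3 and 468.3, 408.8 and 123.6 CPM in day 7 libraries, with 6 of 9 called higher at day 7 by edgeR and 8 by DESeq2. Like the mitotic sum, the endothelial, macrophage and fibroblast sums were lower in day 7 replicate 3 than in replicates 1 and 2. At day 3 these sums, too, were higher in replicate 2 than in replicate 1. So were the erythroid, skeletal muscle and T, B and NK cell sums. The luminal epithelium, adipocyte, neutrophil and pericyte and smooth muscle sums were lower in day 3 replicate 2. The 10 macrophage markers summed to 161.4, 272.6 and 122.6 CPM in uninjured, 272.3 and 1042 CPM in day 3 and 702.6, 1112 and 493.0 CPM in day 7 libraries, with 4 of 10 called higher at day 7 by edgeR and 8 by DESeq2. The 9 fibroblast markers summed to 1708 to 2217 CPM in uninjured, 1656 and 4928 CPM in day 3 and 6311 to 12511 CPM in day 7 libraries. Of these, 6 of 9 were called higher at day 7 by edgeR and 6 by DESeq2. The endothelial, macrophage and fibroblast calls stand beside 5.9% of all genes called higher by edgeR and 8.6% by DESeq2.

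The 10 markers of luminal epithelium summed to 13.0 to 28.7 CPM in uninjured and 574.7 to 1251 CPM in day 7 libraries. At day 7, 9 of the 10 were called higher by edgeR, beside 5.9% of all genes. Up to 4 of the 10 were at 0 in an uninjured library. In day 3 replicates 1 and 2 they summed to 1550 and 26.0 CPM, whereas the mitotic sum was 66.6 and 132.5 CPM. The adipocyte sum ran against the mitotic sum at day 7, at 29308, 33527 and 50726 CPM in replicates 1, 2 and 3. Of the 10 adipocyte markers, 9 had a negative log2 fold change at day 7 against uninjured skin (median -0.59). Lower calls were 1 in edgeR, beside 1.77% of all genes, and 2 in DESeq2, Cidec and Pnpla2. Of the other lists, the 7 T, B and NK cell markers summed to 11.3 to 15.3 CPM in day 7 and 6.35 to 6.46 CPM in uninjured libraries. Among them 0 passed in edgeR or DESeq2. Of the 5 tested in edgeR, 1 was higher at an unadjusted p under 0.05, against 17.2% of all genes. The 6 neutrophil markers summed to 52.0 to 99.7 CPM in day 7 libraries, within the range of 34.4 to 108.4 CPM in uninjured libraries. The sum hides single markers. Of the 5 tested, 2 were called higher at day 7 by edgeR, against 5.9% of all genes, with a median log2 fold change of 1.63. DESeq2 called S100a9 and Ltf higher. The 6 pericyte and smooth muscle markers summed to 138.9 to 413.4 CPM in day 7 and 54.3 to 92.3 CPM in uninjured libraries. At day 7, edgeR called 3 of these 6 higher and DESeq2 4. The 4 erythroid markers were at 126.6 to 829.9 CPM in day 7 and 59.9 to 140.4 CPM in uninjured libraries, which overlapped. At day 7, edgeR called 2 of these 4 higher and DESeq2 3. Of all genes, edgeR called 5.9% higher at day 7 and DESeq2 8.6%. The skeletal muscle markers were at 803.9 to 1528 CPM in day 7 libraries. Of these, 8 of 9 fell at day 7, beside 1.77% of all genes. The part of any of these cell types in the members' values was not tested.

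**Figure D5:**
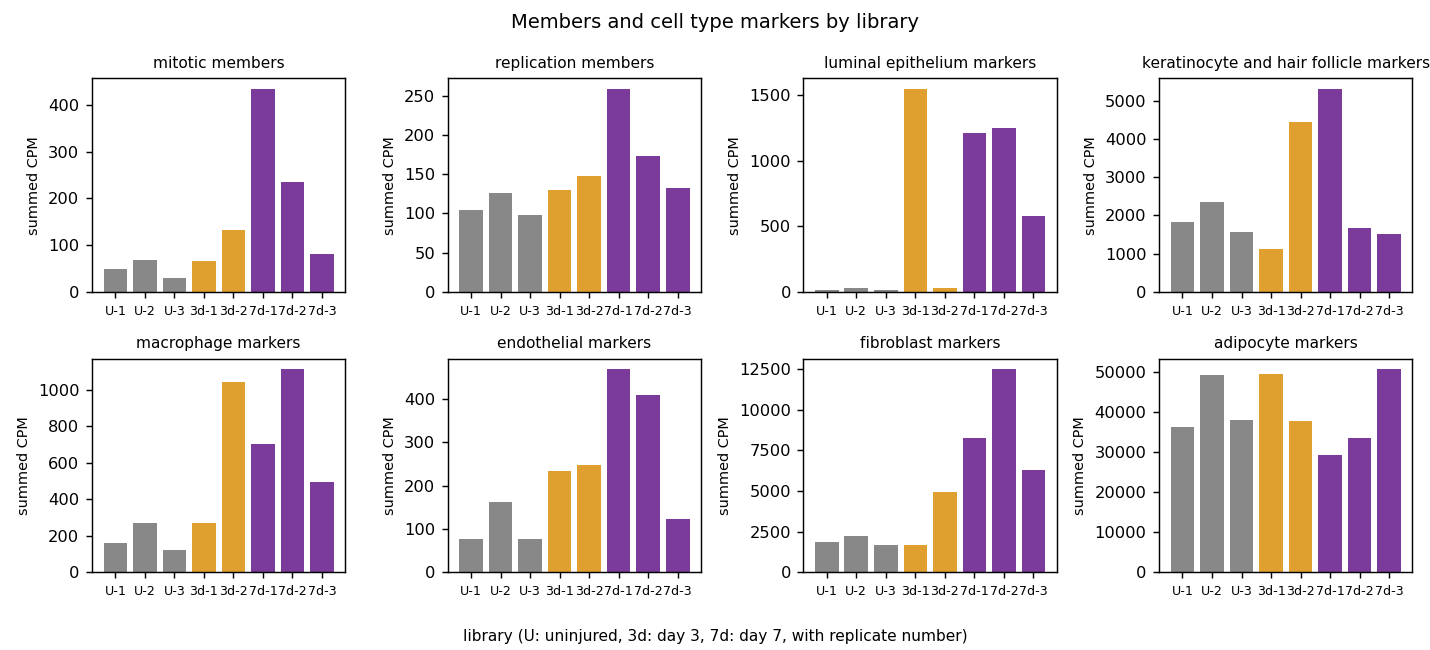
Summed CPM of the mitotic and replication genes and of markers of 6 cell types in each library (x axis, grey uninjured, orange day 3, purple day 7). Day 3 replicate 1 has the highest luminal epithelium sum, 1550 CPM, beside a mitotic sum of 66.6 CPM.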

How the data were processed

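The authors deposited 1 table of raw counts, a column per library, which featureCounts 2.0.8 wrote per the file headers. The build mm10 and the tools STAR 2.7.10b and DESeq2 are named, per the submitters' processing notes. How strand and multi-mapped reads were handled is not stated there. Exons of 13 members overlap another gene in the table, 11 of them on the opposite strand, so their counts are uncertain. The longest overlaps are those of Gins2 with Gse1 (2758 bases) and Kif20a with Cdc23 (977 bases), both on opposite strands. Symbols were matched for 52093 of 53700 identifiers, and Lin54 had no row. Table coordinates were used to find the exon overlaps, while the promoter windows came from RefSeq.

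Counts were TMM-normalised and tested with edgeR 4.0.16 (R 4.3.3) in 1 model of group means over all 8 libraries (5 residual degrees of freedom), on the 18656 genes that passed filterByExpr (minimum count 10). Contrasts were tested two-sided with Benjamini-Hochberg adjustment over all genes. Each standard error is the log2 fold change over the root of F. Fits were run on simulated data first, with changes placed only in genes above a set mean level in uninjured libraries. All mitotic genes and many replication genes lay below that level, so these runs do not cover them. Across libraries 3 counts equal 0.184 to 0.617 CPM, and counting error limits genes near that level.

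Members and lists were chosen with earlier results of these data known. Genes given in every library are the called members and the 3 of highest level per length in each role group, and others for contrast, and of other lists up to 4 with the smallest adjusted p or all where 5 or fewer passed. Of printed promoters, those of called members among the 4 smallest adjusted p of a role group were chosen, leaving out Tk1, which has no match (E2f1, also among them, was not called). Alternatives were other scalings, DESeq2 1.42.0, other filters, fits of the groups compared, a replicate block and leaving out each library.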

Additional observations from a re-analysis of the deposited data

How the results depend on the processing

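At day 7 against uninjured skin, 9 members were called in the reported fit and 9 to 11 with other scalings, a minimum count of 30 or the compared groups alone. DESeq2 called 21 (17 mitotic), the fit without a filter 25 (21 mitotic) and the fit with a replicate block 19 (15 mitotic), beside 8.6%, 6.11% and 8.38% of all genes called higher in these fits, against 5.9% in the reported one. With 1 library left out, calls ranged from 1 to 28 in all, 0 to 6 of replication and 1 to 22 of mitotic genes, where the lone library of a group reduced to 1 is assumed to vary like the others. At day 3 against uninjured skin, DESeq2 and the fit without a filter each called 1 mitotic member, Prc1, where the reported fit called 0. Of all genes, these fits called 1.9% and 1.8% higher, against 0.0107% in the reported one. At day 7 against day 3, DESeq2 called 1 mitotic member, the fit without a filter 4 and the replicate block 1, where the reported fit called 0. Of all genes, these fits called 0.813%, 0.954% and 0.509% higher, against 0.0643% in the reported one. The cause of these gains was not tested. Whether the replicate numbers pair libraries could not be settled. Deviations from the group mean correlated between -0.074 and 0.203 for same-numbered libraries and between -0.225 and 0.207 for the others. In groups this small the deviations depend on each other, and the labels do not say what a number marks.

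The mitotic minus replication difference of medians at day 7 against uninjured skin stayed between 0.82 and 1.77 with 1 library left out. At day 3 it ranged from -0.16 to 0.75, turning negative without day 3 replicate 2. Log2 fold changes at day 7 against uninjured skin turned negative without day 7 replicate 1 for Mcm4 (-0.15, up to 0.60 with another library left out), Mcm7 (-0.072, up to 0.59), Rrm1 (-0.35, up to 0.46), Kif11 (-0.084, up to 1.85) and Kif20a (-0.23, up to 0.69), none of which was called.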
